A study of Mus musculus with 34 samples.

Results

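Somatostatin (SST) interneurons were compared with parvalbumin (PV) interneurons in mice left in their home cage, by sequencing the mRNA bound to ribosomes of each cell type. The comparison uses 6 of the 34 libraries of the series: 3 SST home cage libraries, all of batch 4, and 3 PV home cage libraries, all of batch 3. They were chosen by their sample titles alone and joined by Ensembl gene. SST libraries came from mice of the genotype Sst:Cre/Ribotag and PV libraries from mice of the genotype PV:Cre/Ribotag, in both cases C57/BL6 mice at postnatal day 60 with the treatment given as Homecage. Every mouse carried the RiboTag allele, in which Cre recombinase puts an HA tag on the ribosomal protein Rpl22, so the Cre driver decided which cells gave RNA. Cre was driven from the Sst or the Pvalb gene, and any cell in which the driver had ever been active carries the tag. The labels name cortex and hippocampus as the tissue and the extraction protocol names cortices. Whether each library is a different animal is not stated in the labels; the p-values therefore reflect library-to-library spread, which may be partly technical. No library of RNA from before the pull-down is used here. The spread behind the home cage p-values was estimated from all 15 libraries of batches 3 and 4. Beside the 6 compared, these are SST and PV libraries of fear-conditioned mice and home cage PV libraries of mice with Nr4a1 deleted.

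Because the cell types sit in different batches, a difference between cell types and a difference between batches cannot be told apart in these 6 libraries. A second set of libraries, all of batch 2, served to say which differences repeat: 4 SST libraries and 2 PV libraries of the same genotypes and age, from mice given saline. The 2 comparisons share no library. The spread in saline was estimated from all 9 libraries of batch 2, which include SST libraries of mice given the seizure drug PTZ. Levels are given as CPM, counts scaled to library size after TMM scaling within a comparison, and differences as the log2 fold change of SST over PV, so that a positive value means higher in SST; ± after a log2 fold change is its standard error. A gene was called when its adjusted p from edgeR's quasi-likelihood test was under 0.05, with adjustment over all genes tested. In bulk libraries of this kind, fewer cells of a type and less RNA per cell cannot be told apart.

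SST and PV cells are the main classes of inhibitory interneuron in cortex and hippocampus, and both arise from the medial ganglionic eminence under the transcription factor Lhx6. PV cells, mostly basket and chandelier cells, fire fast trains of brief spikes and inhibit the cell body and axon start of pyramidal cells, a task that takes Kv3 potassium channels, fast calcium sensors for release and many mitochondria. SST cells, among them Martinotti cells, inhibit distal dendrites, release the peptide somatostatin and receive excitatory synapses that strengthen during a train of spikes. A rare kind of SST cell, marked by Chodl and Nos1, projects over long distances.

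In the home cage 16081 genes were tested, of which 2844 (17.7%) were higher in SST libraries and 2900 (18%) were lower, so 35.7% of all genes tested differed. The groups did not overlap for 2649 of the higher genes and 2701 of the lower genes. Beyond a log2 fold change of 2 there were 746 higher and 349 lower genes, and beyond 4 there were 224 higher and 100 lower genes. The median over all genes tested was 0.07. Protein-coding genes made up 97.4% of the higher and 92.5% of the lower genes. The higher genes had a median exon length of 5393 bases, the lower genes 3072 bases and the genes not called 4084 bases. Total counts were 16487693 to 20271874 per SST library and 10096035 to 20353741 per PV library. The rRNA gene CT010467.1 took 0.502% to 0.742% of the counts in SST libraries, and 1.39%, 2.45% and 4.6% in PV replicates 1, 2 and 3. Without PV replicate 3 the counts were 2188 higher and 2620 lower, and without the rRNA and mitochondrially encoded genes 2849 and 2892. SST replicate 1 stood apart in Pvalb, described below, and SST replicate 2 in vascular genes; without them the counts were 2574 and 2693, and 2355 and 2462. Ddx3y, a gene of the Y chromosome, was at 0 in replicate 1 of each group and between 28.1 and 68.2 CPM in the other libraries.

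In saline libraries 11784 genes were tested, of which 3065 (26%) were higher and 3189 (27.1%) were lower in SST, 53.1% in either direction. Of 2553 genes higher in the home cage and tested in saline, 1338 were also called higher there (52.4%), which is 44.8% of the 2984 genes that were higher in saline and tested in the home cage. Of 2473 lower genes tested in saline, 1634 were also lower there (66.1%), or 52.1% of 3134 lower genes in saline. Beyond a log2 fold change of 2, 379 of 516 higher genes (73.4%) and 126 of 149 lower genes (84.6%) were called in both. Opposite calls were made for 167 higher and 75 lower genes. Across the 11512 genes tested in both, Pearson's r of the log2 fold changes was 0.638 and Spearman's rho 0.593, a description across genes that are not independent replicates.

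**Figure D1:**
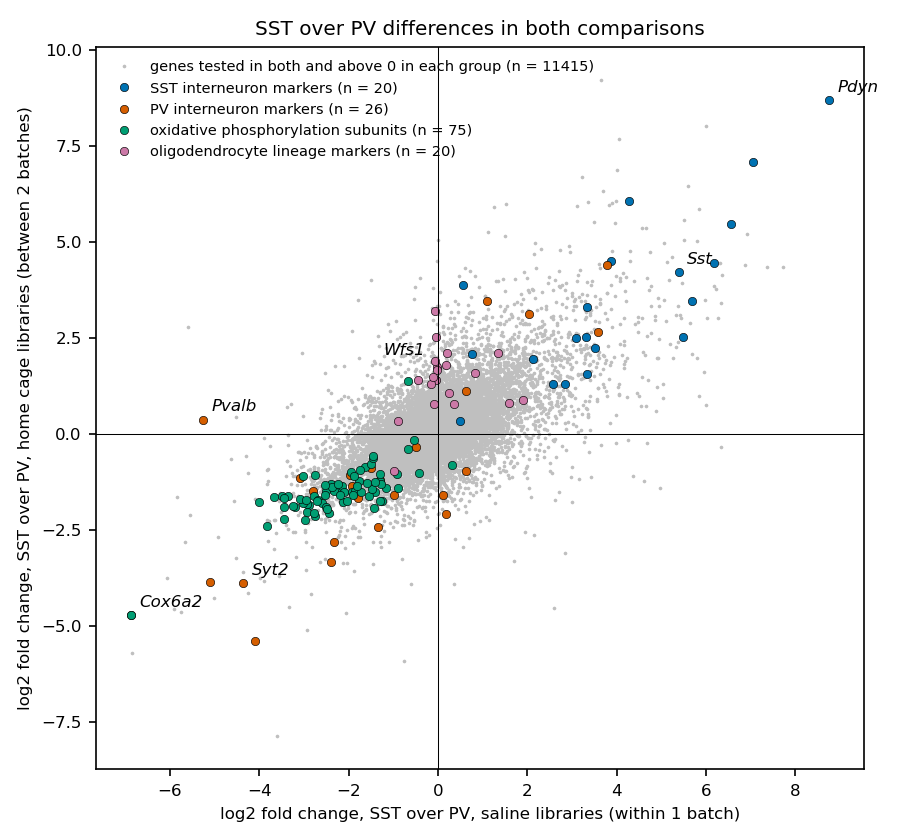
Each point is a gene tested in both comparisons, placed by its log2 fold change of SST over PV in saline libraries of 1 batch (x axis) and in home cage libraries of 2 batches (y axis). The 97 genes at 0 in all libraries of a group are not drawn. Coloured points are 4 gene lists: SST markers lie upper right, PV markers and oxidative phosphorylation subunits mostly lower left, oligodendrocyte genes above 0 on the y axis but near 0 on the x axis, and Pvalb far left at -5.26 in saline with 0.37 in the home cage.

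The driver genes are shown first with the sequence just before their start, since the drivers and several marker results rest on these loci. Each line holds the 250 bases before the annotated start, 5′ to 3′ on the gene's strand, from RefSeq on GRCm38.p6. The Sst stretch, chr16:23890845-23891094 on the minus strand, holds a full cAMP response element, TGACGTCA, in capitals, which begins 48 bases before the start. The Pvalb stretch is chr15:78206401-78206650 on the minus strand and holds neither motif searched. Syt2, at chr1:134646362-134646611 on the plus strand, holds TNAAGGTCA, the extended site bound by estrogen-related receptors, in capitals on the opposite strand, 167 bases before the start. Syt2 is a PV marker and not a driver, and was the only 1 of 22 PV markers with a promoter stretch to hold this motif. Pvalb and Syt2 each have 2 annotated stretches, of which 1 is shown, for Syt2 the one with the most matches.
Sst: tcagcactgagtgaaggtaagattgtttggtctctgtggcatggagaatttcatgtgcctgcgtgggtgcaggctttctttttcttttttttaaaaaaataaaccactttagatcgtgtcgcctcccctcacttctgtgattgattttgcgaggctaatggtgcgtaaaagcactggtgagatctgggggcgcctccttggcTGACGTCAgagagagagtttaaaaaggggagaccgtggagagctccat
Pvalb: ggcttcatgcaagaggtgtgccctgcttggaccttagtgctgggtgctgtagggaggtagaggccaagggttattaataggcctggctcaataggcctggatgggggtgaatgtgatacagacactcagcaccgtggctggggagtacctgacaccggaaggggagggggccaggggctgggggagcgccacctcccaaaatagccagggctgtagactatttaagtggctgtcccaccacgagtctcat
Syt2: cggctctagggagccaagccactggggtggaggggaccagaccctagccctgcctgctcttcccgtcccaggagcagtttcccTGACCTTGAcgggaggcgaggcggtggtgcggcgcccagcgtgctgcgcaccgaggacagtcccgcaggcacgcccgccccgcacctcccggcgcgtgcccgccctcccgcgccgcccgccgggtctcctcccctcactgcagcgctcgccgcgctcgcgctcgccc
Both motifs were searched on both strands. TGACGTCA, which reads the same on both strands, stood in 1.55% and TNAAGGTCA in 1.14% of the 32851 stretches of this length in the table. A match is a description of the letters and not a bound site.

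Sst separated the Cre lines in the home cage as its label says. It had 5527, 4952 and 5362 CPM in SST libraries, against 131, 232 and 494 CPM in PV libraries, and all SST libraries lay above all PV libraries (log2 fold change 4.21 ± 0.53, adjusted p = 6.27e-05 by edgeR). In saline it had 3398, 1746, 2601 and 2534 CPM in SST saline libraries, against 68 and 54.3 CPM in PV saline libraries (log2 fold change 5.39 ± 0.27, adjusted p = 5.66e-08). The PV home cage libraries ranged widely, with the highest Sst in PV replicate 3.

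Pvalb, which encodes the calcium buffer parvalbumin, did not separate them. It had 449, 170.0 and 80 CPM in SST libraries, against 161, 206 and 174 CPM in PV libraries, and the groups overlapped (log2 fold change 0.37 ± 0.68, adjusted p = 0.714). With no filter on low counts the log2 fold change was 0.39 and passed (adjusted p = 0.0363), and without SST replicate 1 it was -0.53. SST replicate 1 held more Pvalb than any PV library and SST replicate 3 less than any. In saline the gene followed its label, with 12, 6.46, 6.22 and 6.71 CPM in SST saline libraries, against 362 and 243 CPM in PV saline libraries (log2 fold change -5.26 ± 0.26, adjusted p = 5.29e-08). The home cage difference exceeded the saline difference by 5.66 ± 0.89 (adjusted p = 2.18e-04). Pvalb, a defining marker of PV cells, thus did not tell the labelled groups apart in home cage libraries.

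Ift27, a subunit of the intraflagellar transport complex, is the nearest gene named here to Pvalb: it lies on chromosome 15 from 78159463 to 78174107 (minus strand, GRCm38), 17006 bases from Pvalb, which lies from 78191114 to 78206400. It had 43.1, 51.2 and 38.4 CPM in SST libraries, against 839.7, 1260.0 and 1189 CPM in PV libraries (log2 fold change -4.63 ± 0.25, adjusted p = 2.56e-09), with no overlap. In saline it had 2.18, 2.11, 2.15 and 1.17 CPM in SST saline libraries, against 133 and 71 CPM in PV saline libraries (log2 fold change -5.75 ± 0.30, adjusted p = 8.39e-08). Ift27 was thus lower in SST in both comparisons, while its neighbour Pvalb was lower in saline and overlapped in the home cage.

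**Figure D2:**
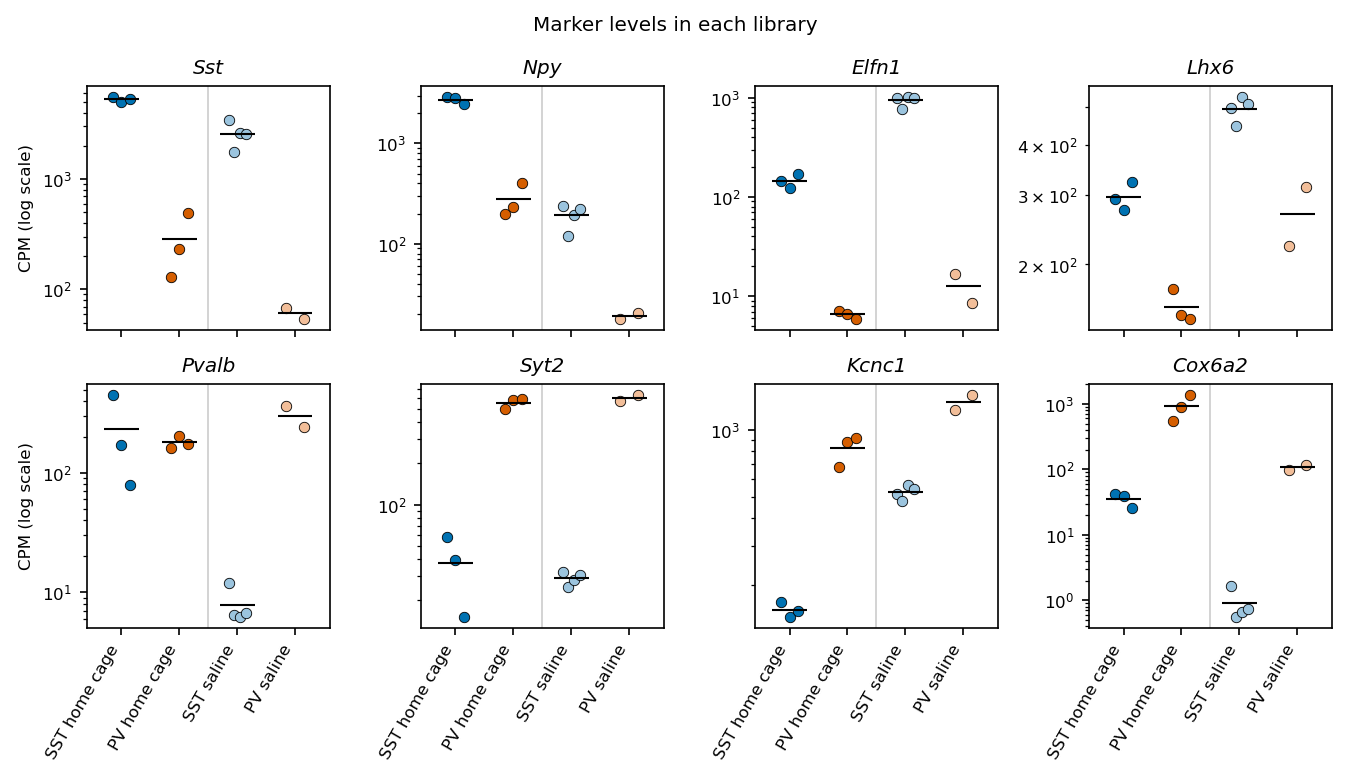
CPM on a log axis for 8 genes, in each panel from left to right SST home cage (n = 3), PV home cage (n = 3), SST saline (n = 4) and PV saline (n = 2), with 1 point per library and a line at the group mean. Levels are scaled within a comparison, so only neighbours on the same side of the grey line are compared. Sst, Npy, Elfn1 and Lhx6 are higher in SST on both sides, Syt2, Kcnc1 and Cox6a2 lower, and the Pvalb points of the home cage groups overlap.

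Of 23 SST interneuron markers tested, 21 were higher in SST home cage libraries, 0 were lower and 2 were not called. The share called was 91.3%, against 35.7% of all genes tested, and the median log2 fold change was 3.3, against 0.07 over all genes. All 21 were without overlap between groups, as were 2649 of the 2844 genes called higher among all genes tested. In saline 19 of 22 were higher and 0 lower, with a median of 3.69, and 19 were called in both. Npy, neuropeptide Y, had 2894, 2806 and 2484 CPM in SST libraries, against 199, 232 and 404 CPM in PV libraries (log2 fold change 3.30 ± 0.21, adjusted p = 1.73e-08). Elfn1, a synaptic organiser that sets release at excitatory synapses onto SST cells, had 146, 123 and 168 CPM in SST libraries, against 7.16, 6.68 and 5.92 CPM in PV libraries (log2 fold change 4.45 ± 0.19, adjusted p = 5.14e-10). Its saline difference was larger, at 6.18, and the difference between comparisons passed (adjusted p = 1.32e-04).

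Reln encodes reelin, a secreted matrix protein, and had 276, 210.0 and 309 CPM in SST libraries, against 9.19, 12.2 and 14.2 CPM in PV libraries (log2 fold change 4.50 ± 0.28, adjusted p = 9.85e-09). Grin3a, an NMDA receptor subunit found in dendrite-targeting SST cells, had 422, 268 and 502 CPM in SST libraries, against 9.6, 10.7 and 6.16 CPM in PV libraries (log2 fold change 5.47 ± 0.33, adjusted p = 7.95e-09). None of the groups overlapped for these genes. Chodl, the marker of long-range SST cells, had 28.4, 22.6 and 16.8 CPM in SST libraries, against 0.305, 0.0743 and 0 CPM in PV libraries (log2 fold change 7.09 ± 0.59, adjusted p = 2.47e-06). Cort, named after its value was seen, was among the markers not called, at log2 0.35 (adjusted p = 0.431). Cort encodes cortistatin, a peptide related to somatostatin, and was called without PV replicate 3 (log2 0.85, adjusted p = 0.037).

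Among 31 PV interneuron markers tested, 20 were lower in SST home cage libraries, 3 were higher and 8, with Pvalb, were not called. The share called was 74.2%, against 35.7% of all genes tested, at a median of -1.23. In saline 16 of 26 were lower and 3 higher, at a median of -1.65, and 15 lower and 3 higher calls were made in both. Syt2, the fast calcium sensor for release at PV terminals, had 57.9, 39.2 and 15.2 CPM in SST libraries, against 498, 577 and 585 CPM in PV libraries (log2 fold change -3.89 ± 0.36, adjusted p = 1.51e-06). Kcnc1, a Kv3 channel, had 168, 144 and 153 CPM in SST libraries, against 678, 881 and 916 CPM in PV libraries (log2 fold change -2.41 ± 0.12, adjusted p = 1.43e-09). Cplx1, complexin 1, clamps and speeds vesicle fusion and had 2188, 1741 and 1801 CPM in SST libraries, against 5045, 5138 and 4590.3 CPM in PV libraries (log2 fold change -1.37 ± 0.10, adjusted p = 8.66e-08). All SST libraries lay below all PV libraries for these genes.

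Nog, the BMP antagonist noggin, had 4.32, 5.39 and 4.95 CPM in SST libraries, against 50.8, 48 and 49.9 CPM in PV libraries (log2 fold change -3.34 ± 0.17, adjusted p = 1.35e-09). Pthlh, parathyroid hormone-like hormone, had 5.83, 6.72 and 2.74 CPM in SST libraries, against 66.4, 68.8 and 84.1 CPM in PV libraries (log2 fold change -3.85 ± 0.35, adjusted p = 8.94e-07). The 3 members that went the other way were Cpne5, Gpx3 and Tpbg, of which Tpbg was named after its value was seen. Cpne5, a calcium-dependent membrane-binding copine, had 95.1, 90.4 and 101 CPM in SST libraries, against 4.72, 3.79 and 4.99 CPM in PV libraries (log2 fold change 4.41 ± 0.21, adjusted p = 7.46e-10). Gpx3, a secreted glutathione peroxidase, had 138, 128 and 138 CPM in SST libraries, against 19.9, 20.3 and 24 CPM in PV libraries (log2 fold change 2.66 ± 0.16, adjusted p = 9.85e-09). All 3 were also higher in SST saline libraries, at log2 3.79, 3.58 and 2.04.

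Markers of other cell types were read against all genes tested. In the home cage 35.7% of these were called in either direction and 17.7% were higher, and in saline 53.1% were called in either direction. Oligodendrocyte lineage markers summed to 1052, 1475 and 1167 CPM in SST libraries, against 259.7, 413.3 and 480.6 CPM in PV libraries, with 11 of 20 higher, 1 lower and a median of 1.45. In saline the sums were 392 to 465.6 CPM in SST and 388 to 432.5 CPM in PV, with 3 higher, 2 lower and a median of -0.04. Mbp, myelin basic protein, had 442, 673 and 484 CPM in SST libraries, against 101, 169 and 211 CPM in PV libraries (log2 fold change 1.74 ± 0.35, adjusted p = 0.00149). Its saline log2 fold change was -0.03, and the difference between comparisons passed (adjusted p = 0.00424). In this list 9 of 20 members were called higher in the home cage comparison than in saline by that test, which called 17.3% of all genes tested higher.

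Vascular and mural markers summed to 200.5, 1031 and 570.8 CPM in SST libraries, against 194.1, 232.3 and 241.4 CPM in PV libraries, so the groups overlapped. Of them 10 of 25 were higher (40%) and 0 lower, falling to 4 without SST replicate 2 and to 6 without PV replicate 3. In saline 7 of 17 were higher and 1 lower, at a median of 1.04, where 26% of all genes tested were higher. The saline sums were 43.85 to 74.73 CPM in SST and 31.91 to 35.49 CPM in PV, and 5 higher calls were made in both comparisons. Col4a2, a basement membrane collagen, had 14.9, 30.6 and 30.1 CPM in SST libraries, against 4.67, 7.35 and 5.34 CPM in PV libraries (log2 fold change 2.12 ± 0.42, adjusted p = 9.83e-04). Astrocyte markers summed to 577.7 to 763.7 CPM in SST and 699.2 to 906.1 CPM in PV, with 8 of 16 higher, 2 lower and a median of 0.89. Without SST replicate 2 there were 4 higher. Microglia markers summed to 85.97 to 110.4 CPM in SST and 56.11 to 67.13 CPM in PV, with 3 of 15 higher (20%) and 0 lower. That share lies under the 35.7% of all genes called in either direction and above the 17.7% called higher.

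Excitatory neuron markers summed to 1145 to 1209 CPM in SST and 692.7 to 856 CPM in PV, so the sums did not overlap. Here 5 of 20 were higher (25%) and 0 lower, also under the 35.7% called in either direction and above the 17.7% called higher. Slc17a7, the vesicular glutamate transporter of cortical pyramidal cells, had 103, 135 and 132 CPM in SST libraries, against 60.7, 69.8 and 74.6 CPM in PV libraries (log2 fold change 0.86 ± 0.18, adjusted p = 0.00176), and in saline it was at -0.37 (adjusted p = 0.103). Wfs1, an endoplasmic reticulum protein rich in CA1 pyramidal cells, had 198, 85.7 and 103 CPM in SST libraries, against 34.2, 46.6 and 26.2 CPM in PV libraries (log2 fold change 1.85 ± 0.32, adjusted p = 2.82e-04). It was lower in SST saline libraries, at -1.40 (adjusted p = 7.06e-05). Of 14 VIP and CGE interneuron markers, 7 were higher and 1, Cck, was lower (57.1% called, against 35.7% of all genes tested). Calb2, among the higher ones, is also counted among the SST markers. The list summed to 477.9 to 495 CPM in SST and 374.3 to 572.3 CPM in PV, so the sums overlapped. The part of these other cells in the neuronal gene groups below was not tested.

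**Figure D3:**
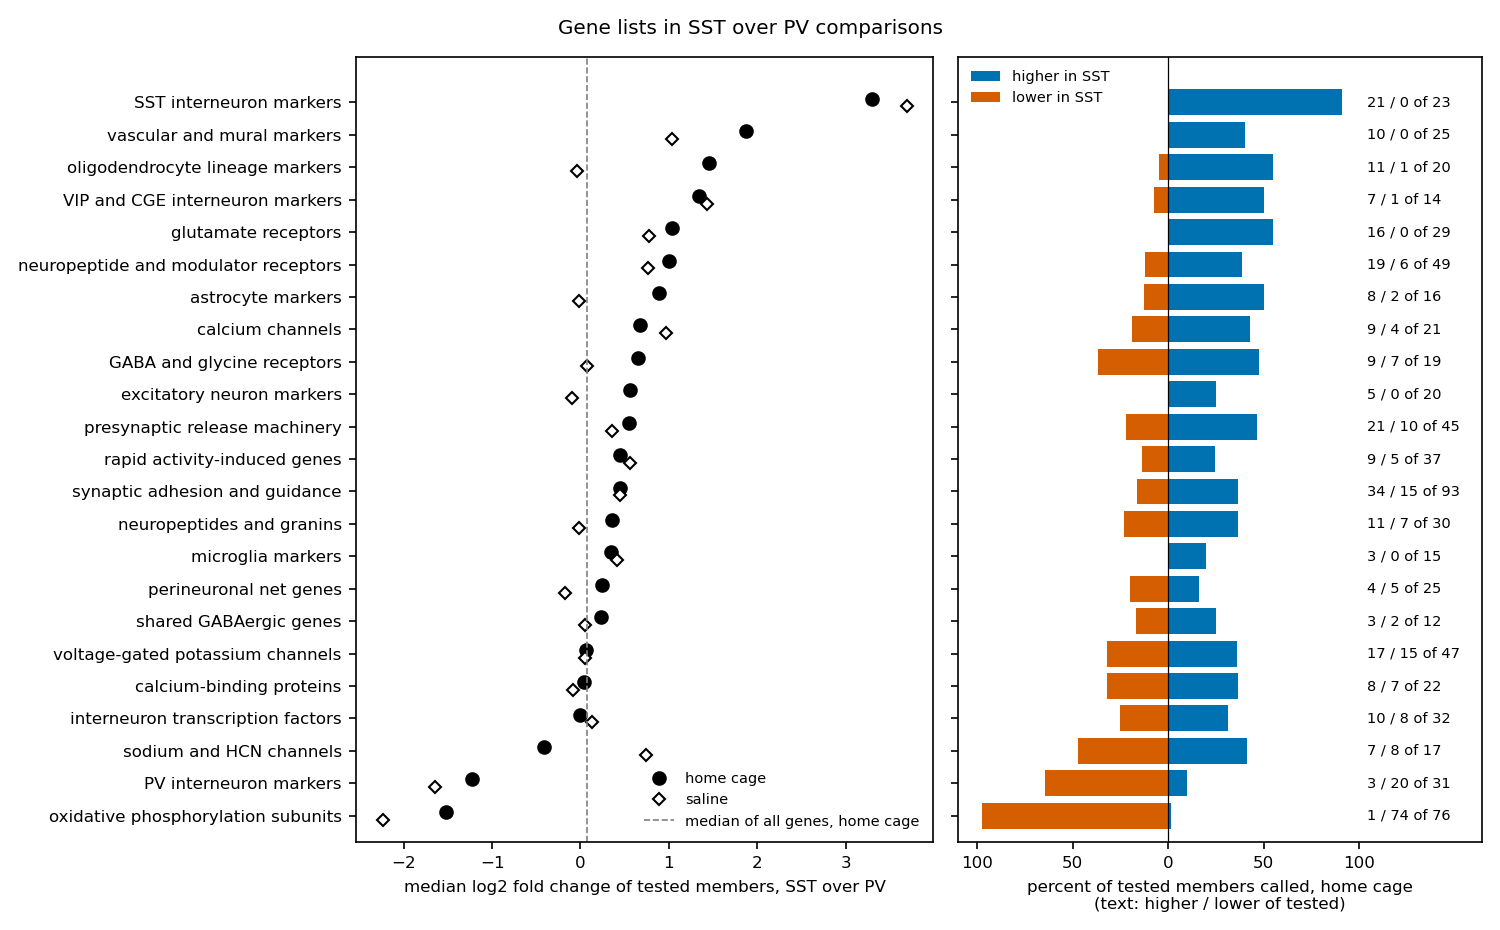
Left, median log2 fold change of SST over PV for the tested members of 23 gene lists in home cage (filled) and saline (open) libraries, with the home cage median of all genes as a dashed line. Right, percent of tested members called higher (blue) or lower (orange) in SST home cage libraries, with the counts beside the bars. SST markers have the highest median and oxidative phosphorylation subunits the lowest, and the oligodendrocyte, astrocyte and excitatory lists lie above the dashed line in the home cage and at 0 or under it in saline.

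Of the 15 largest higher differences at a mean of 5 CPM or more and without overlap, 13 were tested in saline, where all 13 were also higher. These genes were picked for their size, and 73.4% of all higher genes beyond a log2 fold change of 2 repeated. Pdyn, the precursor of dynorphin opioid peptides, had 794, 591 and 864 CPM in SST libraries, against 3.15, 0.446 and 1.39 CPM in PV libraries (log2 fold change 8.68 ± 0.61, adjusted p = 1.54e-07). Calb2, the calcium buffer calretinin, had 173, 174 and 205 CPM in SST libraries, against 2.54, 3.49 and 2.09 CPM in PV libraries (log2 fold change 6.07 ± 0.28, adjusted p = 7.39e-10). Tac2, the precursor of neurokinin B, had 51.5, 33.8 and 55 CPM in SST libraries, against 0.254, 0.371 and 2.09 CPM in PV libraries (log2 fold change 5.97 ± 0.56, adjusted p = 1.04e-06). Nts, neurotensin, was not tested in saline and had 27.9, 26.4 and 21.1 CPM in SST libraries, against 0.914, 0 and 0.116 CPM in PV libraries (log2 fold change 5.90 ± 0.81, adjusted p = 4.06e-05).

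Slc7a3, Crhr2 and Stk32b were at 0 in all PV home cage libraries, so their fold is a lower bound against 3 counts in the shallowest PV library. Slc7a3, a cationic amino acid transporter, had 19.3, 30.8 and 22 CPM in SST libraries, at least 69-fold higher. Crhr2, a receptor for corticotropin-releasing hormone and urocortins, had 16.8, 9.34 and 17.3 CPM, at least 41.6-fold higher, and Stk32b, a kinase, 16.5, 11.2 and 15.6 CPM, at least 41.4-fold higher. Ucn3, urocortin 3, itself a ligand of Crhr2, had 15.7, 17 and 6.39 CPM in SST libraries, against 0.305, 0 and 0 CPM in PV libraries (log2 fold change 6.55 ± 0.88, adjusted p = 6.02e-05). Wnt7a, a secreted Wnt ligand, had 32, 22.3 and 25 CPM in SST libraries, against 0.406, 0.446 and 0.348 CPM in PV libraries (log2 fold change 6.00 ± 0.46, adjusted p = 1.15e-07). Prkcq, protein kinase C theta, was at log2 7.69 ± 1.05 (adjusted p = 5.25e-05).

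Some of these genes differed less in saline, although they were still called there. Grm8, a metabotropic glutamate receptor, had 11.5, 12.1 and 11.2 CPM in SST libraries, against 0.203, 0.297 and 0 CPM in PV libraries (log2 fold change 5.92 ± 0.66, adjusted p = 5.43e-06), against 1.24 in saline (adjusted p = 0.0131). Magel2, an imprinted gene of the Prader-Willi region, had 21.8, 15.6 and 18.4 CPM in SST libraries, against 0.609, 0 and 0.116 CPM in PV libraries (log2 fold change 5.99 ± 0.99, adjusted p = 2.06e-04), against 1.53 in saline. Baiap3, a protein of dense-core vesicle release, had 81, 75.8 and 65.5 CPM in SST libraries, against 0.203, 0.0743 and 0 CPM in PV libraries (log2 fold change 9.22 ± 0.67, adjusted p = 5.63e-08), against 3.65 in saline. The difference between comparisons passed for these genes, with adjusted p of 1.33e-04 for Grm8, 0.00551 for Magel2 and 0.0274 for Baiap3. Without PV saline replicate 2 that of Baiap3 was -0.57, and without PV saline replicate 1 Grm8 was not called in saline (log2 0.65, adjusted p = 0.109).

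Of the 15 largest lower differences, 9 were tested in saline and all 9 were also lower there, against 84.6% of all lower genes beyond a log2 fold change of 2. Cox6a2, a subunit of cytochrome c oxidase used in heart and skeletal muscle, had 41.4, 39.7 and 25.6 CPM in SST libraries, against 551, 890.1 and 1362 CPM in PV libraries (log2 fold change -4.72 ± 0.29, adjusted p = 7.95e-09). Cox8b, another subunit known from muscle, was at log2 -6.03 ± 0.55 (adjusted p = 8.02e-07). Tcap, the titin cap of the muscle Z disc, had 6.54, 5.28 and 5.26 CPM in SST libraries, against 107, 139.6 and 157 CPM in PV libraries (log2 fold change -4.56 ± 0.28, adjusted p = 9.56e-09). Mybpc1, a myosin-binding protein, had 1.62, 0.64 and 1.62 CPM in SST libraries, against 60.5, 62.8 and 41.2 CPM in PV libraries (log2 fold change -5.39 ± 0.47, adjusted p = 4.48e-07).

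Sgca, a sarcoglycan of the muscle membrane, had 0.054, 1.76 and 0 CPM in SST libraries, against 10.1, 14.1 and 10.8 CPM in PV libraries (log2 fold change -4.28 ± 0.88, adjusted p = 0.00124). Cav3, the muscle caveolin, was at log2 -5.72 ± 0.97 (adjusted p = 2.73e-04). Myl1, a myosin light chain, was at 0 in all SST libraries and at 0.305, 73.3 and 1.97 CPM in PV libraries, so it was at least 155-fold lower in SST against 3 counts in the shallowest SST library, although its PV libraries spread widely and the bound without PV replicate 2 was 7.03-fold; its adjusted p of 0.0314 went above the threshold without PV replicate 2 (0.179) and without any 1 SST library (0.0756 to 0.084). In saline Cox6a2 was at -6.87, Tcap at -5.91, Mybpc1 at -4.09 and Sgca at -5.02.

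The same set held short or repeated sequences whose reads can be shared with copies, so their values are uncertain. Gm23935, Gm24245 and Gm25911 are annotated as miRNA genes. Gm23935 had 633, 770.1 and 448 CPM in SST libraries, against 5666, 11594 and 27838 CPM in PV libraries (log2 fold change -4.61 ± 0.53, adjusted p = 2.83e-05), in the order of the rRNA shares of the libraries. BC002163 is a processed pseudogene whose transcript matches that of Ndufs5 at 317 of 319 bases, and it had 1.51, 0.961 and 1.17 CPM in SST libraries, against 196, 287 and 373 CPM in PV libraries (log2 fold change -7.87 ± 0.28, adjusted p = 6.86e-11). Ndufs5 itself, a subunit of complex I named after its value was seen, went the other way, with 105, 90.6 and 80.2 CPM in SST libraries, against 24.8, 32.2 and 50.2 CPM in PV libraries (log2 fold change 1.37 ± 0.21, adjusted p = 1.27e-04). Summed, the pair had 106, 91.5 and 81.4 CPM in SST libraries, against 221, 319 and 423 CPM in PV libraries.

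Oxidative phosphorylation subunits, which couple electron transport to ATP synthesis in mitochondria, were lower in SST as a group. Of 76 tested, 74 were lower and 1, Ndufs5, was higher (98.7% called, against 35.7% of all genes tested), with a median of -1.52. They summed to 35170, 28200 and 27540 CPM in SST libraries, against 61850, 81600 and 96480 CPM in PV libraries, so all SST libraries lay below all PV libraries. In saline 73 of 75 were lower and 1 was higher, with a median of -2.24, and 72 lower calls were made in both. PV replicate 3 had the highest sum and the highest rRNA share. Without it, 74 were lower at a median of -1.32.

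Lower subunits were found in all 5 complexes. Complex I had 35 of 36 tested subunits lower, with a median of -1.49. Complex II had 3 of 4 lower (-0.86), complex III 9 of 9 (-1.43), complex IV 12 of 12 (-1.78) and complex V 15 of 15 (-1.5). Cyc1, cytochrome c1 of complex III, had 435, 379 and 400.0 CPM in SST libraries, against 907, 1174 and 1141 CPM in PV libraries (log2 fold change -1.41 ± 0.11, adjusted p = 1.43e-07). Atp5c1, the gamma subunit of ATP synthase, had 865, 722 and 688 CPM in SST libraries, against 1608, 1959.8 and 2050.1 CPM in PV libraries (log2 fold change -1.30 ± 0.12, adjusted p = 1.09e-06). Atp5g3, a subunit of its membrane ring, was at log2 -2.06 ± 0.20 (adjusted p = 1.28e-06). Uqcrfs1, the Rieske iron-sulfur protein, had 423, 329.9 and 342 CPM in SST libraries, against 767, 1022 and 876 CPM in PV libraries (log2 fold change -1.28 ± 0.13, adjusted p = 1.55e-06), and Ndufa10 of complex I had 390.1, 358 and 337 CPM in SST libraries, against 719, 778 and 701 CPM in PV libraries (log2 fold change -1.02 ± 0.10, adjusted p = 1.52e-06). The groups did not overlap for these subunits.

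Subunit genes are short, and short genes tended to be lower in SST. With the trend of counts on gene length removed in each library, 73 subunits were lower in the home cage, at a median of -1.09 where the median of all genes moved by -0.126, and 66 were lower in saline, at -1.35. Esrra, the estrogen-related receptor alpha that drives mitochondrial genes in other tissues, had 47.6, 45.3 and 42.3 CPM in SST libraries, against 138, 140.1 and 113 CPM in PV libraries (log2 fold change -1.54 ± 0.13, adjusted p = 2.68e-07), and was at -3.25 in saline. TNAAGGTCA stood before the start of 2 of the 62 subunit genes with a promoter in the table (3.23%) and of 0.857% of the 11553 genes tested that had one. The other motif searched, TGACGTCA, stood before 4 of the 62 (6.45%), among them Uqcrfs1 and Ndufa10, and before 3.06% of the genes tested. Whether either motif bears on the subunit levels was not tested.

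**Figure D4:**
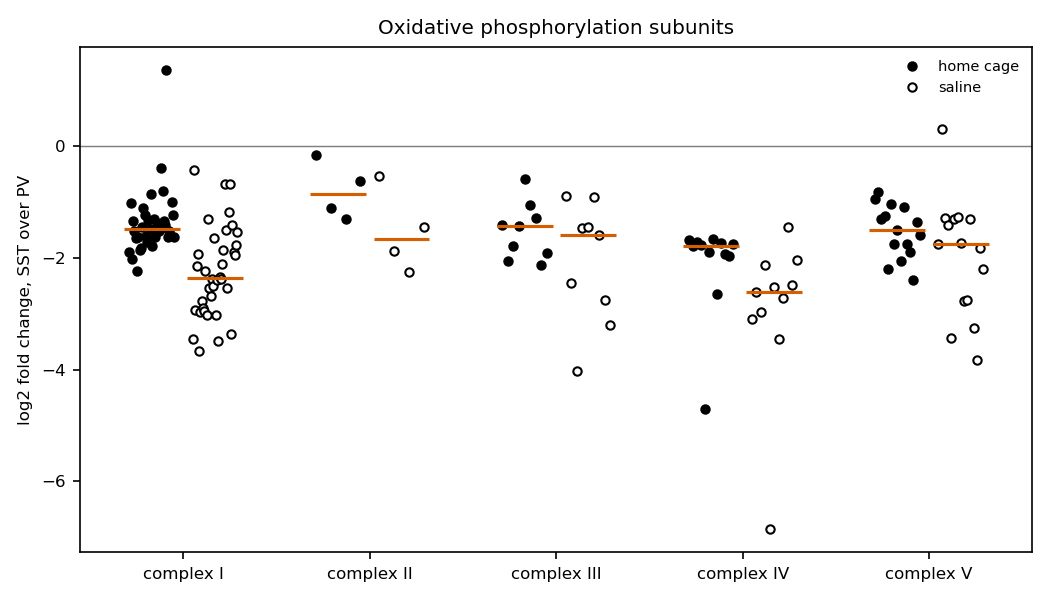
Log2 fold change of SST over PV for each oxidative phosphorylation subunit, by complex, in home cage (filled) and saline (open) libraries, with the median of each column as an orange line. Nearly all points lie under 0; Ndufs5 of complex I is the filled point above 0, and Cox6a2 the lowest filled and open points of complex IV.

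Of 30 neuropeptide and granin genes, 11 were higher and 7 lower (60% called, against 35.7% of all genes tested), with a median of 0.35. Beside Sst, Npy, Pdyn and Tac2, Penk, the precursor of enkephalins, had 337, 352 and 239 CPM in SST libraries, against 15.8, 18.9 and 21.8 CPM in PV libraries (log2 fold change 4.04 ± 0.30, adjusted p = 9.21e-08). Its saline difference was 1.73, smaller by the test of the difference (adjusted p = 4.3e-04). Cck, cholecystokinin, was lower in SST, with 73.4, 76.6 and 74.5 CPM in SST libraries, against 264, 366 and 416 CPM in PV libraries (log2 fold change -2.22 ± 0.18, adjusted p = 2.12e-07), and at -2.62 in saline.

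Of 49 receptors for peptides and modulators, 19 were higher and 6 lower (51% called, against 35.7% of all genes tested), with a median of 1.00. Htr1a, an inhibitory serotonin receptor, had 60.8, 59.7 and 72.1 CPM in SST libraries, against 3.4, 3.86 and 0.813 CPM in PV libraries (log2 fold change 4.50 ± 0.38, adjusted p = 3.42e-07). Oxtr, the oxytocin receptor, had 57.6, 54.9 and 70 CPM in SST libraries, against 9.44, 8.17 and 10.9 CPM in PV libraries (log2 fold change 2.68 ± 0.24, adjusted p = 5.78e-07). Chrm3, a muscarinic receptor coupled to Gq, was at log2 1.96 ± 0.27 (adjusted p = 3.43e-05). Cnr1, the CB1 cannabinoid receptor, had 66.8, 74.1 and 73.2 CPM in SST libraries, against 22.6, 12.6 and 18.4 CPM in PV libraries (log2 fold change 1.99 ± 0.21, adjusted p = 2.47e-06). Oprl1, the nociceptin receptor, was at log2 1.31 ± 0.18 (adjusted p = 4.3e-05). All of them repeated in saline, at log2 4.30, 2.39, 2.88, 3.00 and 0.77.

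Of 12 genes shared by GABAergic cells, 3 were higher, 2 lower and 7 not called, with a median of 0.24; 41.7% were called, against 35.7% of all genes tested. Gad2, the smaller glutamate decarboxylase, found mostly at terminals, had 969, 803 and 799.7 CPM in SST libraries, against 472, 439 and 434 CPM in PV libraries (log2 fold change 0.94 ± 0.10, adjusted p = 2.95e-06).
Gad1, the larger decarboxylase, was lower in SST, with 2201, 1649 and 1518 CPM in SST libraries, against 3621, 3093 and 2073 CPM in PV libraries (log2 fold change -0.71 ± 0.17, adjusted p = 0.0046); its groups overlapped. Slc32a1, the vesicular GABA transporter, was also lower, with 76.9, 57.1 and 55.9 CPM in SST libraries, against 169.6, 224 and 309 CPM in PV libraries (log2 fold change -1.89 ± 0.19, adjusted p = 2.14e-06). In saline the values were 1.64 for Gad2, -0.85 for Gad1 and -1.13 for Slc32a1, each called in the same direction.

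GABA and glycine receptor subunits moved both ways, with 9 of 19 higher, 7 lower (84.2% called, against 35.7% of all genes tested) and a median of 0.65. Gabrd, the delta subunit of extrasynaptic receptors, had 71.7, 40 and 51.6 CPM in SST libraries, against 258, 314 and 197 CPM in PV libraries (log2 fold change -2.24 ± 0.19, adjusted p = 4.48e-07). Gabrg1, a gamma subunit, was higher in SST and had 29, 26 and 31.4 CPM in SST libraries, against 1.32, 1.26 and 0.348 CPM in PV libraries (log2 fold change 4.78 ± 0.44, adjusted p = 8.02e-07). Gabrb1, a beta subunit, was at log2 1.58 ± 0.20 (adjusted p = 1.83e-05). The calls for Gabrd, Gabrg1 and Gabrb1 repeated in saline.

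Members of the glutamate receptor list were higher in SST or not called, while Cacng2, described with the calcium channels below, was lower. Of 29 tested, 16 were higher and 0 lower (55.2% called, against 35.7% of all genes tested), with a median of 1.04. With the gene length trend removed, 15 were higher and 2 lower. In saline, where 53.1% of all genes tested were called, 21 were higher and 2 lower. Grm7, a presynaptic metabotropic receptor, had 35, 43.2 and 55.6 CPM in SST libraries, against 7.31, 5.94 and 3.14 CPM in PV libraries (log2 fold change 2.99 ± 0.33, adjusted p = 4.11e-06). Grik3, a kainate receptor subunit, had 67.1, 50.6 and 73.4 CPM in SST libraries, against 17, 19 and 18.6 CPM in PV libraries (log2 fold change 1.81 ± 0.19, adjusted p = 3.48e-06). Neto1, an auxiliary subunit of kainate receptors, was at log2 1.88 ± 0.16 (adjusted p = 3.74e-07). The groups did not overlap for these genes, and each repeated in saline, at 2.58, 2.29 and 1.98. Of the excitatory neuron markers given above, 5 of 20 were called higher in the same libraries (25%, against 17.7% of all genes). Their part in these values was not tested.

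Voltage-gated potassium channels moved both ways, with 17 of 47 higher, 15 lower (68.1% called, against 35.7% of all genes tested) and a median of 0.06. Kcnab2, a cytoplasmic beta subunit of Kv1 channels, had 193, 160.2 and 165 CPM in SST libraries, against 527, 604 and 560.1 CPM in PV libraries (log2 fold change -1.71 ± 0.10, adjusted p = 4.7e-09). Kcnip2, a partner of Kv4 channels, was at log2 -2.55 ± 0.15 (adjusted p = 7.81e-09). Kcnf1, a silent modulatory subunit of Kv2 channels, was higher in SST and had 80.8, 76.2 and 87.1 CPM in SST libraries, against 8.17, 8.09 and 14.9 CPM in PV libraries (log2 fold change 2.99 ± 0.23, adjusted p = 1.15e-07). Kcnd3, an A-type channel of the Kv4 family, was at log2 2.11 ± 0.21 (adjusted p = 1.78e-06). All of these repeated in saline.

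Sodium and HCN channels had 7 of 17 higher and 8 lower members in the home cage (88.2% called, against 35.7% of all genes tested). The median was -0.42 in the home cage and 0.74 in saline, although single members mostly kept their direction. Of the home cage calls, 7 higher and 7 lower were also made in saline, and 0 were opposite there. Scn2a, a pore-forming sodium channel, had 108, 110.0 and 133 CPM in SST libraries, against 13.2, 14.3 and 18.7 CPM in PV libraries (log2 fold change 2.94 ± 0.23, adjusted p = 1.3e-07). Scn8a, the sodium channel of axon starts and nodes, was at log2 -1.16 ± 0.12 (adjusted p = 2.54e-06). Auxiliary subunits also went both ways. Scn3b had 98.7, 112 and 138 CPM in SST libraries, against 8.43, 6.39 and 12.8 CPM in PV libraries (log2 fold change 3.68 ± 0.24, adjusted p = 2.16e-08). Scn2b was at log2 -1.16 ± 0.15 (adjusted p = 2.78e-05). Hcn2, a channel of the hyperpolarisation-activated current, had 12.5, 20.8 and 35.3 CPM in SST libraries, against 130.0, 132 and 89.5 CPM in PV libraries (log2 fold change -2.36 ± 0.34, adjusted p = 5.86e-05). Its saline difference was -0.80, and the difference between comparisons passed (adjusted p = 0.0154), though not without PV saline replicate 2 (adjusted p = 0.101); without PV saline replicate 1 Hcn2 was not called in saline (log2 -0.42, adjusted p = 0.138).

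Calcium channel genes had 9 of 21 members higher and 4 lower (61.9% called, against 35.7% of all genes tested), with a median of 0.67. Cacng5, an AMPA receptor auxiliary subunit grouped with calcium channel gamma subunits, was higher and had 49.2, 42.5 and 43.4 CPM in SST libraries, against 1.12, 1.78 and 0.116 CPM in PV libraries (log2 fold change 5.37 ± 0.54, adjusted p = 1.84e-06). Cacng3, of the same family, was at log2 1.70 ± 0.16 (adjusted p = 8.94e-07). Cacng2, stargazin, the best known member of that family, was lower in the home cage, with 58.3, 52.2 and 60.1 CPM in SST libraries, against 175, 200.2 and 245 CPM in PV libraries (log2 fold change -1.86 ± 0.15, adjusted p = 2.68e-07), and at 0.39 in saline (adjusted p = 0.0995), where it was called higher without PV saline replicate 1 (log2 0.73, adjusted p = 0.00318). Cacna2d3, an alpha2delta subunit that brings channels to the membrane, had 138, 160.0 and 222 CPM in SST libraries, against 15.6, 11.9 and 15.8 CPM in PV libraries (log2 fold change 3.59 ± 0.34, adjusted p = 1.28e-06) and repeated at 2.99.

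Of 45 genes of presynaptic release, 21 were higher and 10 lower (68.9% called, against 35.7% of all genes tested), with a median of 0.55. Beside Syt2 and Cplx1, Vamp1, the vesicle SNARE of fast synapses, was lower, with 315, 256 and 254 CPM in SST libraries, against 1307, 1384 and 1217 CPM in PV libraries (log2 fold change -2.24 ± 0.11, adjusted p = 8.65e-10). Syt7, a slow high-affinity calcium sensor, had 32.4, 26.4 and 32.9 CPM in SST libraries, against 93.9, 123 and 177 CPM in PV libraries (log2 fold change -2.10 ± 0.20, adjusted p = 1.09e-06). Syt5, another synaptotagmin, was higher, with 226, 190.2 and 226 CPM in SST libraries, against 18.6, 15.9 and 13.2 CPM in PV libraries (log2 fold change 3.74 ± 0.21, adjusted p = 2.74e-09), and so was Rims3, a small active zone protein, with 215, 237 and 232 CPM in SST libraries, against 39.5, 35.5 and 62.5 CPM in PV libraries (log2 fold change 2.32 ± 0.19, adjusted p = 2.38e-07). Synpr, the vesicle protein synaptoporin, had 403, 383 and 554 CPM in SST libraries, against 21.6, 18.1 and 27.1 CPM in PV libraries (log2 fold change 4.33 ± 0.22, adjusted p = 1.35e-09). In saline Synpr differed more, at 7.73, and the difference between comparisons passed (adjusted p = 1.95e-06).

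**Figure D5:**
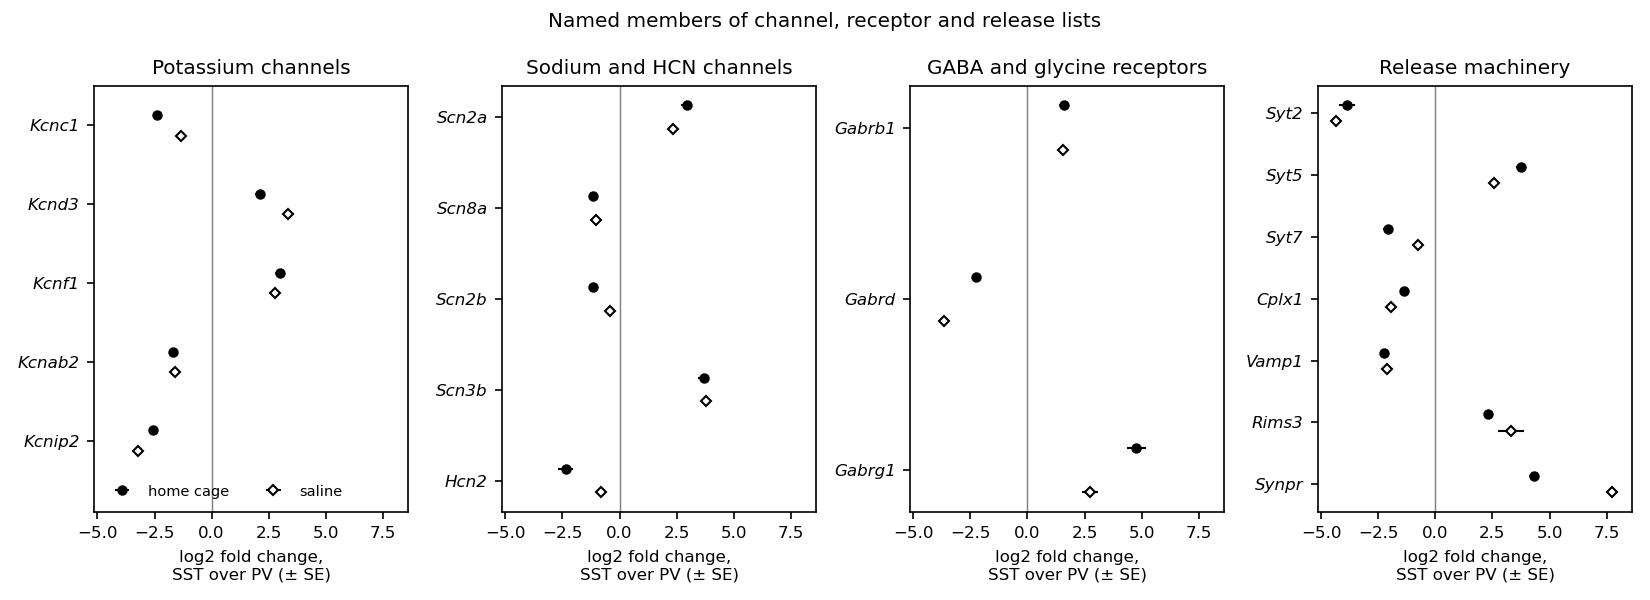
Log2 fold change of SST over PV (± SE) in home cage (filled) and saline (open) libraries for members of 4 channel, receptor and release lists that the text names and that were tested in both comparisons. The lists drawn were chosen after their values had been seen. Members of a list stand on both sides of 0, as Kcnc1 against Kcnf1, Scn8a against Scn2a, Gabrd against Gabrg1, or Syt2 against Syt5.

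Calcium-binding proteins had 8 of 22 members higher and 7 lower (68.2% called, against 35.7% of all genes tested), with a median of 0.04. Calb1, calbindin, had 1193, 1131 and 1409 CPM in SST libraries, against 377, 206 and 210.5 CPM in PV libraries (log2 fold change 2.23 ± 0.20, adjusted p = 7.27e-07). Hpcal4, a neuronal calcium sensor, was at log2 2.79 ± 0.13 (adjusted p = 7.84e-10). Ncs1, neuronal calcium sensor 1, was lower, with 286, 274 and 352 CPM in SST libraries, against 862, 918 and 566 CPM in PV libraries (log2 fold change -1.36 ± 0.16, adjusted p = 8.23e-06). These repeated in saline, at 3.51, 2.26 and -1.44.

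Perineuronal nets are sheets of chondroitin sulfate proteoglycan that wrap mainly PV cells. Of 25 net genes tested, 4 were higher and 5 lower, with a median of 0.25; 36% were called, near the 35.7% of all genes tested, so the values below are those of single genes. Acan, aggrecan, the core proteoglycan of the net, had 1.13, 0.907 and 0 CPM in SST libraries, against 11.2, 8.39 and 16 CPM in PV libraries (log2 fold change -4.14 ± 0.68, adjusted p = 2.08e-04). Hapln4, a link protein that binds proteoglycans to hyaluronan, was lower as well and had 289, 187 and 140.4 CPM in SST libraries, against 815, 980.2 and 410.1 CPM in PV libraries (log2 fold change -1.84 ± 0.28, adjusted p = 1.08e-04). Hapln1, of the same family, was at log2 -1.70 ± 0.28 (adjusted p = 2.26e-04). Adamts15, a protease that cuts aggrecan and related proteins, had 9.35, 3.79 and 8.37 CPM in SST libraries, against 51.2, 40.8 and 45.9 CPM in PV libraries (log2 fold change -2.68 ± 0.29, adjusted p = 4.07e-06). Higher members were Timp3, a protease inhibitor, and Chst15, a sulfotransferase of chondroitin chains; Timp3 had 82.9, 112 and 96.5 CPM in SST libraries, against 10.1, 10.7 and 8.25 CPM in PV libraries (log2 fold change 3.32 ± 0.52, adjusted p = 1.64e-04). Chst15 was at log2 3.96 ± 0.63 (adjusted p = 2.01e-04). All 6 of these calls repeated in saline.

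Synaptic adhesion and guidance genes had 34 of 93 members higher and 15 lower (52.7% called, against 35.7% of all genes tested), with a median of 0.45. Cdh13, a cadherin, had 799, 617 and 769 CPM in SST libraries, against 250.3, 263 and 254 CPM in PV libraries (log2 fold change 1.51 ± 0.11, adjusted p = 8.63e-08). Cdh4, another cadherin, was at log2 3.05 ± 0.25 (adjusted p = 2.03e-07). Cbln4, a secreted synaptic organiser used by dendrite-targeting SST cells, had 113, 93.8 and 114 CPM in SST libraries, against 22.8, 18.2 and 13.8 CPM in PV libraries (log2 fold change 2.53 ± 0.22, adjusted p = 4.98e-07). It differed more in saline, at 5.49 (adjusted p of the difference = 2.66e-05). Sema3a, a secreted semaphorin, had 62.2, 39.6 and 65.3 CPM in SST libraries, against 14.1, 7.57 and 9.06 CPM in PV libraries (log2 fold change 2.43 ± 0.26, adjusted p = 3.32e-06). Pcdh8, a protocadherin, was at log2 2.48 ± 0.20 (adjusted p = 2e-07). Lgi2, a secreted ligand of ADAM receptors, was lower, with 115, 77.6 and 74.3 CPM in SST libraries, against 266, 268 and 262 CPM in PV libraries (log2 fold change -1.57 ± 0.16, adjusted p = 1.84e-06).

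Transcription factors of interneurons had 10 of 32 members higher and 8 lower (56.2% called, against 35.7% of all genes tested), with a median of 0. Lhx6, which both cell types need, had 293, 275 and 324 CPM in SST libraries, against 173, 149 and 146 CPM in PV libraries (log2 fold change 0.93 ± 0.15, adjusted p = 1.61e-04), and repeated at 0.89. Npas1, a repressor of interneuron generation, had 139, 125 and 139 CPM in SST libraries, against 0.863, 3.71 and 1.97 CPM in PV libraries (log2 fold change 5.99 ± 0.37, adjusted p = 9.85e-09). Mef2c, required for PV cell maturation in mice, was lower in SST, with 269.6, 254 and 353 CPM in SST libraries, against 668, 611 and 708 CPM in PV libraries (log2 fold change -1.18 ± 0.15, adjusted p = 2.24e-05). Rora, an orphan nuclear receptor, had 59.9, 37.7 and 41.2 CPM in SST libraries, against 128, 123 and 81.3 CPM in PV libraries (log2 fold change -1.26 ± 0.20, adjusted p = 1.57e-04). Bcl11b, a zinc finger factor, was at log2 0.92 ± 0.15 (adjusted p = 1.42e-04). All of these repeated in saline, where Npas1 was at 0 in both PV libraries.

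Of 37 activity-induced genes tested in these untrained mice, 9 were higher and 5 lower, with a median of 0.45; 37.8% were called, near the 35.7% of all genes tested. Fos had 25.1, 12.4 and 8.59 CPM in SST libraries, against 30.1, 19 and 38.6 CPM in PV libraries, with overlap (log2 fold change -0.93 ± 0.48, adjusted p = 0.147). Fos was called without SST replicate 1, at -1.47 (adjusted p = 0.0301), and with no filter on low counts, at -0.90 (adjusted p = 3.1e-05). Nr4a1, the nuclear receptor that the study deletes elsewhere, had 22, 13.7 and 12.6 CPM in SST libraries, against 5.28, 8.02 and 12.4 CPM in PV libraries (log2 fold change 0.94 ± 0.34, adjusted p = 0.038). That call was lost without SST replicate 1 (adjusted p = 0.172), PV replicate 1 (0.155) or PV replicate 2 (0.104). In saline Nr4a1 was at 0.48 (adjusted p = 0.374). Klf10, a zinc finger factor, had 12.1, 16.8 and 15.6 CPM in SST libraries, against 2.34, 3.04 and 2.44 CPM in PV libraries (log2 fold change 2.51 ± 0.36, adjusted p = 6.3e-05). Bdnf, the neurotrophin, was at log2 1.79 ± 0.44 (adjusted p = 0.00442). Dusp1, a phosphatase of MAP kinases, was lower, with 68, 50.3 and 56.6 CPM in SST libraries, against 132, 157 and 138 CPM in PV libraries (log2 fold change -1.29 ± 0.17, adjusted p = 2.83e-05). Klf10, Bdnf and Dusp1 repeated in saline, at 2.44, 1.76 and -2.26.

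The difference between the home cage and the saline comparison was itself tested over 11693 genes, of which 2021 (17.3%) were more positive and 932 (7.97%) more negative in the home cage. With RLE in place of TMM scaling these were 1337 and 1370, so the balance between directions depends on the scaling. Of the 2972 differences that repeated, 2252 were not called by this test. That does not show equal sizes, since on simulated data the test recovered 31 of 100 log2 changes of 1. Hap1, a huntingtin-associated transport protein, was more positive in the home cage, with 292, 279 and 213 CPM in SST libraries, against 29.5, 26.6 and 19.7 CPM in PV libraries (log2 fold change 3.36 ± 0.16, adjusted p = 7.46e-10), and was at 0.20 in saline (adjusted p = 0.532); without PV saline replicate 1 it was at -0.17 there, and without PV saline replicate 2 at 0.67 (adjusted p = 0.0462). The home cage difference exceeded the saline difference by 3.18 ± 0.28 (adjusted p = 1.39e-07).

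Some genes were called in opposite directions. Gle1, an mRNA export factor, was at 0.64 in the home cage and -1.84 in saline, with a difference of 2.50 ± 0.21 (adjusted p = 1.02e-07). Tef, a clock output transcription factor, was at 0.68 in the home cage and -1.23 in saline, with an adjusted p of 1.72e-07 for the difference. Paf1, a transcription elongation factor, was at 0.82 in the home cage and -1.25 in saline (adjusted p of the difference = 4.49e-07). Ckb, brain creatine kinase, was lower in both, at -1.53 in the home cage and -3.55 in saline, and the difference of 2.04 passed (adjusted p = 3.25e-07). On the negative side, Cap1, an actin regulator, was at -1.75 in the home cage and 0.32 in saline, and the difference of -2.03 passed (adjusted p = 1.2e-06); without PV saline replicate 1 Cap1 was called higher in saline, at 0.70 (adjusted p = 0.0013). Camk2g, a subunit of a calmodulin-dependent kinase, was at -1.39 in the home cage and 0.17 in saline (adjusted p of the difference = 1.05e-06). Cacng2 and Synpr, described above, belong to the same side, with differences of -2.22 and -3.37. Rgs17, a regulator of G protein signalling, was higher in both, at 1.02 in the home cage and 3.00 in saline, with a difference of -1.95.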

How the data were processed

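For batches 2, 3 and 4 the files deposited by the authors hold raw counts, whole numbers that were not normalized. HTSeq 0.11.0, STAR 2.5.2a, DESeq2 and cutadapt 1.18 are named in the submitters' processing notes, as are the builds GRCm39 and mm10, without a role or batch for any. Whether counting used strand is not stated, so overlapping and antisense genes cannot be told apart. The home cage tables of 53465 genes each were joined by Ensembl ID, of which 53360 were found in GENCODE M21 (GRCm38). The batch 2 table lists 11808 symbols, without mitochondrially encoded genes or the rRNA gene; 11437 matched as written, 260 through a synonym and 111 not. Of the per-sample columns in the files used, 0 lacked a sample; batches 1 and 5 were not used here. Total counts in saline were 13763931 to 18367658 per SST library, and 6161764 and 4933110 in the PV libraries.

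The test was edgeR 4.0.16's quasi-likelihood F test in R 4.3.3, robust and two-sided, with TMM scaling, filterByExpr and Benjamini-Hochberg adjustment over all genes tested. All 15 libraries of batches 3 and 4, or all 9 of batch 2, shared the estimate of the spread, and 24 entered the test of the difference. These include the fear-conditioned, Nr4a1-deleted and PTZ libraries of those batches. Standard errors are the absolute log2 fold change over the square root of F. Alternatives used RLE or upper quartile scaling, other filters, DESeq2 1.42.0, voom of limma 3.58.1, fewer libraries, a fold threshold, a gene length correction and a replicate block. On simulated data with known changes and no batch effect the test was checked before use. Of 100 log2 changes of 1 it recovered 56 in the home cage, 61 in saline and 31 for the difference. At a log2 change of 2 it recovered 95, 98 and 82 of 100. False calls numbered 3, 11 and 7.

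Genes were named by rule: Sst, Pvalb, Lhx6, Nr4a1 and Fos; in each direction, the 15 largest called differences with no overlap and a mean of 5 CPM or more; up to 6 called members of each of 23 lists at 1 CPM, or 2 where none passed; and, among home cage calls, the 5 per direction with the smallest p in the test of the difference. Some genes that the rule names are not reported here. Others are said to be chosen later. The groups compared, the lists and the rule were chosen with earlier results of these data known. Genes at 0 in a group have bounds against 3 counts, per library; list medians were the same with such genes at their bound. Replicates were not identical (smallest chi-square per degree of freedom 12.9). Without molecular identifiers, bounds speak to counting error alone.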

Additional observations from a re-analysis of the deposited data

Results flagged for a closer look

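These genes had an SST against PV difference in the home cage that differed from the one in saline by the test of the difference itself (log2 difference, home cage minus saline, from edgeR's quasi-likelihood test with Benjamini-Hochberg adjustment). Only genes named in the text were examined, and 25.3% of all genes tested were called by this test. The difference was positive for Pvalb at 5.66 (adjusted p = 2.18e-04), Baiap3 at 5.58 (0.0274), Grm8 at 4.72 (1.33e-04), Magel2 at 4.50 (0.00551) and Hap1 at 3.18 (1.39e-07). It was smaller but positive for Gle1 at 2.50, Penk at 2.34, Paf1 at 2.10, Ckb at 2.04, Tef at 1.94 and Mbp at 1.79. It was negative for Synpr at -3.37 (adjusted p = 1.95e-06), Cbln4 at -2.93 (2.66e-05) and Cacng2 at -2.22 (1.95e-06), and for Cap1 at -2.03, Rgs17 at -1.95, Elfn1 at -1.70, Camk2g at -1.53 and Hcn2 at -1.52.

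In 6 genes 1 of the 4 SST saline libraries stood far from the other 3, measured as its gap to the nearest library over the group's whole range. The share was 0.934 for Ift27, 0.915 for Pvalb, 0.910 for Tef, 0.907 for Elfn1, 0.848 for Slc17a7 and 0.833 for Baiap3. Pvalb was at 12 CPM in SST saline replicate 1, against 6.22 to 6.71 CPM in the other SST saline libraries. Baiap3 was at 8.36 CPM in SST saline replicate 4. Chance alone puts about 1 in 20 groups past this limit, a nominal rate that was not measured on these CPM values. Only genes whose saline values the text uses were examined, so the 6 are not a share of all genes.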

How the results depend on the processing

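Of 199 results on single genes, 141 kept their direction and side of the threshold under every alternative that gave a value; over 3492 pairs of result and alternative, 3374 did so, 103 lost the call, 9 gained it and 6 reversed. The reversals, each given with the range over libraries left out, were Pvalb in the home cage, -0.53 without SST replicate 1 (to 0.78); Hap1 in saline, -0.17 without PV saline replicate 1 (to 0.67); Mbp in saline, 0.039 with upper quartile scaling and 0.021 without SST saline replicate 2 (from -0.065); Nr4a1 in saline, -0.10 without PV saline replicate 2 (to 1.65); and the difference for Baiap3, -0.57 without PV saline replicate 2 (to 6.83). Counts are given as higher then lower in SST. Tested against an absolute log2 fold change of 1 they were 523 and 425 in the home cage, 881 and 923 in saline, 273 and 215 repeating, and 168 and 42 for the difference. The difference gave 1337 higher with RLE size factors, 1605 lower with DESeq2, 1163 and 466 with limma voom, and 1233 and 506 with the compared groups only. In that last setting the counts were 2156 and 2112 in the home cage, 2552 and 2733 in saline, and 1015 and 1237 repeating. Leaving out 1 library gave 2188 to 2852 and 2449 to 2885 in the home cage, 2700 to 3637 and 2776 to 3345 in saline, 1097 to 1436 and 1437 to 1647 repeating, and 1664 to 2116 and 721 to 1489 for the difference, the 1489 without PV saline replicate 1. With the replicate number as a block the counts were 1756 and 1721 in the home cage, 1259 and 1232 in saline, 601 and 674 repeating, and 504 and 181 for the difference. The samples share only a number: deviations of same-numbered home cage libraries correlated at -0.04, -0.009 and -0.025, and of saline libraries at 0.077 and 0.14. No home cage library correlated best with its own number. With 2 PV saline libraries the deviations of 1 are the negative of the other, so the saline values are mirror images. Removing the length trend moved the median of all genes by -0.126 on the log2 scale. The cause of these changes was not tested. The 2 PV saline libraries were the shallowest, and with 3 libraries a group a miss does not show equal levels.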

Other observations

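Of 242 genes called in opposite directions in the home cage and in saline, the 5 whose smaller absolute log2 fold change was largest are given here; that ranking was chosen after the data were seen. 1700034H15Rik was at -4.54 in the home cage (adjusted p = 0.02) and at 2.58 in saline (adjusted p = 0.00802). Slc7a11, the transporter that exchanges cystine for glutamate, had 1.67, 5.55 and 1.71 CPM in SST libraries, against 18.6, 23.8 and 9.76 CPM in PV libraries (log2 fold change -2.55 ± 0.52, adjusted p = 0.00115), and was at 1.94 in saline (adjusted p = 1.46e-04). Slc40a1, the iron exporter ferroportin, had 3.35, 29.6 and 12.8 CPM in SST libraries, against 4.01, 6.53 and 0.929 CPM in PV libraries (log2 fold change 1.97 ± 0.69, adjusted p = 0.0354), and was at -1.77 in saline (adjusted p = 0.0334); its home cage groups overlapped. Rprm, a mediator of cell cycle arrest, had 18.9, 8.81 and 13.3 CPM in SST libraries, against 4.27, 4.16 and 5.23 CPM in PV libraries (log2 fold change 1.59 ± 0.36, adjusted p = 0.00258), and was at -2.52 in saline (adjusted p = 0.00184). Ankrd63 was at 4.00 in the home cage (adjusted p = 4.28e-05) and at -1.49 in saline (adjusted p = 0.038). Batch and Cre line cannot be told apart in the home cage values.

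Rpl22, the gene that carries the tag, had 45.5, 41.5 and 29.2 CPM in SST libraries, against 47.9, 59.2 and 88.2 CPM in PV libraries (log2 fold change -0.74 ± 0.23, adjusted p = 0.0181). In saline Rpl22 had 14.6, 11.9, 12.9 and 12.2 CPM in SST saline libraries, against 38 and 22.9 CPM in PV saline libraries (log2 fold change -1.24 ± 0.23, adjusted p = 7.46e-04).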
